A study of Rattus norvegicus with 40 samples.

Results

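The claudins and tight junction genes described here were 10 of the 17337 genes counted in the livers of rats given diethylnitrosamine (DEN), a carcinogen that liver enzymes activate to a DNA-alkylating agent. They were chosen by symbol: 7 claudins (Cldn1, Cldn2, Cldn3, Cldn5, Cldn7, Cldn12 and Cldn14), occludin (Ocln), the junctional adhesion molecule JAM-C (Jam3) and the scaffold protein ZO-1 (Tjp1). All 10 had enough counts to be tested in every comparison. Male Fischer 344 rats, 7 weeks old at the start, received 50 mg/kg DEN weekly by intraperitoneal injection for 8 weeks, for 14 weeks, or for 14 weeks followed by 6 weeks without injections (the 20-week groups), and rats of the same age that received no DEN were the controls (no DEN). Each of these 6 conditions had 4 rats. Non-tumoral liver (NT) was sequenced at each time, and from every rat of the 14- and 20-week DEN groups 2 tumor nodules were sequenced as well, which gave 40 libraries from 24 rats. The model is a chemical carcinogenesis in 1 inbred strain and 1 sex, and NT tissue is DEN-exposed and not healthy liver. The study's histology classed nodules as hepatocellular carcinoma in its account of the 20-week group. Its discussion adds that neoplastic lesions and dysplastic nodules may have added to the varied molecular findings.

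Tight junctions seal the space between neighbouring epithelial cells. Claudins are four-pass membrane proteins whose strands form the seal and, in some members, its ion-selective pores, while occludin and the junctional adhesion molecules sit beside them and ZO-1 ties them to actin. In the liver these junctions close the bile canaliculus between hepatocytes and so keep bile apart from blood, and the cholangiocytes that line bile ducts and the endothelium of vessels carry junctions with other claudins.

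The libraries held 20528515 to 160622633 read pairs assigned to genes (median 30477421), and the deepest, NT liver of rat H26 at 20 weeks, had 4.08 times the pairs of the next. Levels are given as CPM, the read pairs of a gene divided by the library total and scaled by the trimmed mean of M-values (TMM). These are not divided by transcript length, so they compare samples and not genes. Markers checked the tissue: the summed CPM of 6 hepatocyte genes, albumin among them, was 279252 to 328244 in untreated liver, 235329 to 301467 in 8-week NT, 190158 to 236189 in 14-week NT, 229015 to 303241 in 20-week NT and 134791 to 253791 in nodules. The nodules of rat F06 at 14 weeks had 34.5% and 28.2% of their pairs assigned to no feature, against at most 25.5% in the other 14-week nodules. Only exons were counted as features, so pairs from introns of annotated genes can be among these. The summed level of 6 cholangiocyte markers was 43.7 to 56.2 CPM in untreated liver, 54.2 to 64.3 CPM in 8-week NT, 61.6 to 111 CPM in 14-week NT, 55.5 to 80.5 CPM in 20-week NT, and 67.3 to 237 CPM in nodules. Of 8 endothelial markers, 7 rose in each of the 5 comparisons with untreated liver, where 14.3% to 23.9% of all genes rose by the rule given below. In these bulk samples fewer cells of a type and less RNA per cell cannot be told apart. Of the DEN-treated rats, those numbered F (2 at 8 weeks, 1 at 14 and 1 at 20 weeks) had no untreated counterpart numbered F.

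The promoters of 3 members are shown because these genes moved in different ways: Cldn7 had the largest rise of the members in nodules, Cldn1 fell in every comparison with untreated liver, and Ocln fell at 8 weeks. The windows run from 250 bases before to 50 bases after the start of transcription in RefSeq (build GRCr8), and the table held 8 of the 10 members. Those shown are Cldn7 at chr10:55188420-55188719 (plus strand), Ocln at chr2:33441149-33441448 (minus strand) and Cldn1 at chr11:87926126-87926425 (plus strand). Capitals mark the E-box CACCTG or its reverse complement CAGGTG, the letters to which the repressors of the Snail and ZEB families are known to bind in claudin and occludin promoters.
Cldn7: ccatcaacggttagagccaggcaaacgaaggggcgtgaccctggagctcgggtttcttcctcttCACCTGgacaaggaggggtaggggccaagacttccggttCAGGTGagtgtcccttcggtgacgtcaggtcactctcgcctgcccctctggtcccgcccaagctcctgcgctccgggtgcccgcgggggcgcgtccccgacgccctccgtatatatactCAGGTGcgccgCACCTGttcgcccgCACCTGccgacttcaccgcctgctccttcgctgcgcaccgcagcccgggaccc
Ocln: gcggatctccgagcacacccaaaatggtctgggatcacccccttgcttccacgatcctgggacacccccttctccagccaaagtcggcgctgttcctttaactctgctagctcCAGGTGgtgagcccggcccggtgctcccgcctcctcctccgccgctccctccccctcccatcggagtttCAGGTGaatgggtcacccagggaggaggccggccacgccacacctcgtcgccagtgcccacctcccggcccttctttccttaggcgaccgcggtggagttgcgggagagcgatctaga
Cldn1: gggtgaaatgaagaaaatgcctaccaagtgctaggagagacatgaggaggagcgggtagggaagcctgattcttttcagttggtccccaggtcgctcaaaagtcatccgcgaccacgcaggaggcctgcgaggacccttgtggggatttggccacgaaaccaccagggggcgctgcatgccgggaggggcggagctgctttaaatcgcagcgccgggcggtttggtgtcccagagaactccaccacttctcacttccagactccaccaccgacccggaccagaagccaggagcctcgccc

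The Cldn7 window held 5 such E-boxes, whose first bases lay at -186, -147, -28, -17 and -3 from the start, and none overlapped another. Among all 33469 RefSeq windows of this length, 18.8% held at least 1 E-box, 2.52% at least 2, and 4 windows (0.012%) at least 5. The Ocln window held 2 of these, Cldn3 and Cldn14 held 1 each, and the letters were not in the windows of Cldn1, Cldn5, Cldn12 and Tjp1. A match describes the letters and is not evidence of binding.

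The members separated into claudins that fell in DEN-treated liver, claudins that rose, and members that held their level or moved at some times only. A gene was called changed when its adjusted p-value (edgeR quasi-likelihood test, Benjamini-Hochberg over all genes tested) was at most 0.05 and its log2 fold change at least 0.5 in size. In NT liver against untreated liver 5 of the 10 members were called at 8 weeks, where 21.7% of all genes were called: 2 members rose (16.5% of all genes) and 3 fell (5.21%). At 14 weeks 7 members were called, against 32.6% of all genes, with 3 higher (22.8%) and 4 lower (9.85%). At 20 weeks 3 were called, against 18.1%, with 1 higher (14.3%) and 2 lower (3.82%). In nodules against untreated liver 6 members were called at 14 weeks, where 39.1% of all genes were, with 3 higher (23.9%) and 3 lower (15.2%). At 20 weeks 4 members were called in nodules, where 38.8% of genes were, with 1 higher (23.6%) and 3 lower (15.2%). The 20-week nodule count is that of the background, and no test of the members against other genes was made. At the level of rats the groups did not overlap for 6, 6 and 4 members in NT at 8, 14 and 20 weeks (32.8%, 50.2% and 28.1% of all genes) and for 8 and 6 members in nodules (51.3% and 48.8%). Under a stricter rule, log2 fold change 1 or more in either direction with adjusted p 0.01 or less, the members called were 2, 3 and 1 in NT (7.91%, 15.2% and 5.22% of all genes) and 4 and 2 in nodules (18.7% and 17.4%). The NT and nodule comparisons of one time share their untreated rats.

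**Figure D1:**
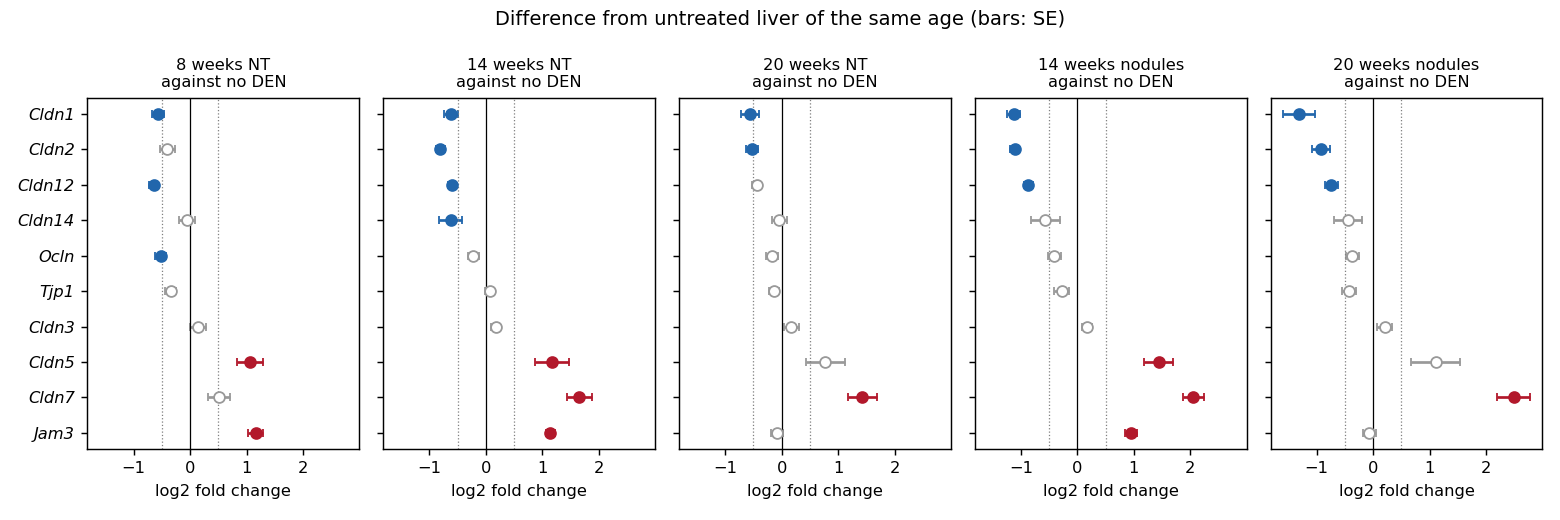
Log2 fold change of the 10 members against untreated liver of the same age (x axis, bars are standard errors) in NT liver at 3 times and in nodules at 2. Filled blue points fell, filled red points rose, open grey points were not called, and dotted lines mark 0.5 in size. Cldn1 was called lower and lies to the left of -0.5 in all 5 panels, while Jam3 was called higher at 8 and 14 weeks only.

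Cldn1, the claudin that is needed for a tight seal in skin and that is abundant in liver, fell in all 5 comparisons. In untreated liver its levels were 80.9, 81.3, 93.8 and 76.7 CPM at 8 weeks, 77.5, 81.9, 89.2 and 87.0 CPM at 14 weeks, and 80.5, 72.5, 73.9 and 81.1 CPM at 20 weeks. NT liver held 51.6, 67.5, 53.5 and 54.2 CPM at 8 weeks, 66.2, 43.1, 47.4 and 60.6 CPM at 14 weeks, and 51.6, 71.3, 50.0 and 37.4 CPM at 20 weeks. Every NT library was below every untreated library of its time, the closest being rat H25 at 20 weeks with 71.3 against 72.5 CPM. The 8 nodules of each time ranged from 27.4 to 55.1 CPM (median 37.8) at 14 weeks and from 13.9 to 61.9 CPM (median 28) at 20 weeks, again below all untreated livers. The log2 fold change in NT was -0.56 (SE 0.10, edgeR adjusted p = 0.00193) at 8 weeks, -0.62 (SE 0.13, adjusted p = 0.00218) at 14 weeks and -0.56 (SE 0.15, adjusted p = 0.0226) at 20 weeks. In nodules it was -1.13 (SE 0.12, adjusted p = 8.5e-05) at 14 weeks and -1.32 (SE 0.28, adjusted p = 0.00344) at 20 weeks. The 20-week NT call was lost without any 1 of rats F03, H16, H26 or H28 (adjusted p 0.0509, 0.0588, 0.0549 and 0.0281, the last with a log2 fold change of -0.44), and the 8-week call without rat H07 (log2 fold change -0.49).

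Cldn2, whose protein forms a pore for cations and water, fell in 14- and 20-week NT liver and in the nodules of both times. Untreated liver held 225, 249, 239 and 248 CPM at 8 weeks, 217, 256, 245 and 236 CPM at 14 weeks and 210, 237, 261 and 281 CPM at 20 weeks. The 4 NT livers of 14 weeks held 151, 134, 133 and 126 CPM and those of 20 weeks 161, 193, 179 and 157 CPM, so neither group overlapped the untreated rats. At 8 weeks the NT values of 187, 148, 234 and 162 CPM did overlap, and the log2 fold change of -0.40 (SE 0.13, adjusted p = 0.0363) stayed under the fold threshold. The overlap came from rat H17, and without it the value passed (-0.55, edgeR adjusted p = 0.00107). Without rat F10 it was -0.30. Nodules ranged from 103 to 123 CPM (median 112) at 14 weeks and from 95.0 to 186 CPM (median 129) at 20 weeks. The log2 fold changes that passed were -0.80 (SE 0.08, adjusted p = 2.49e-05) and -0.53 (SE 0.11, adjusted p = 0.00552) in 14- and 20-week NT, and -1.11 (SE 0.08) and -0.93 (SE 0.16) in nodules. The 20-week NT value rests just past the fold threshold and fell under it without rat F03, H16 or H28 (-0.49 in each case).

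Cldn12, a claudin without the usual PDZ-binding tail that is linked to calcium passage, fell in 8- and 14-week NT liver and in the nodules of both times. Its untreated levels lay between 46.0 and 54.6 CPM in all 12 rats. NT liver held 31.6, 33.4, 34.5 and 30.7 CPM at 8 weeks, 34.7, 30.5, 32.5 and 33.7 CPM at 14 weeks, and 39.8, 35.3, 38.9 and 36.7 CPM at 20 weeks. All 12 NT libraries were therefore below all 12 untreated libraries, whatever the time. The log2 fold change was -0.64 (SE 0.08, adjusted p = 0.000216) at 8 weeks and -0.60 (SE 0.07, adjusted p = 3.95e-05) at 14 weeks, and at 20 weeks it was -0.44 (SE 0.08, adjusted p = 0.0037), short of the fold threshold. Nodules held 22.2 to 33.1 CPM (median 28.3) at 14 weeks and 26.4 to 41.7 CPM (median 30.3) at 20 weeks, with log2 fold changes of -0.87 (SE 0.08) and -0.74 (SE 0.11) that both passed.

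Markers of other cells moved with these 3 claudins. Each marker set was summarised by the mean log2 CPM of its genes, not standardised, so genes that vary widely weigh most. Over the 40 libraries Cldn1, Cldn2 and Cldn12 had a Pearson r of 0.73, 0.71 and 0.65 with the 6 hepatocyte markers. With the 6 cholangiocyte markers r was -0.87, -0.91 and -0.87. In the same order r was -0.65, -0.83 and -0.89 with the stellate cell and fibroblast markers and -0.60, -0.76 and -0.81 with the endothelial markers. The summed hepatocyte markers of NT liver lay below those of every untreated liver of the same time at 8 weeks (235329 to 301467 against 306113 to 314175 CPM) and at 14 weeks (190158 to 236189 against 279252 to 316711 CPM), while at 20 weeks the highest NT liver (303241 CPM) lay within the range of its untreated rats. The part of the cell make-up in the fall of these claudins was not tested.

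**Figure D2:**
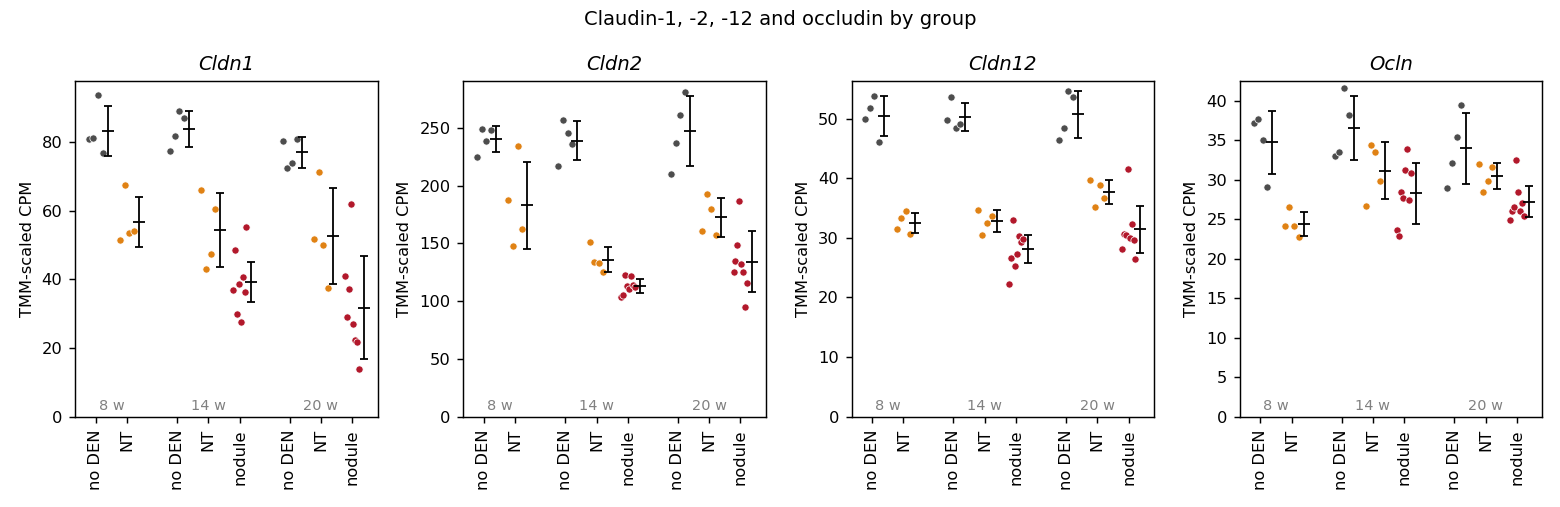
TMM-scaled CPM (y axis, starting at 0) of Cldn1, Cldn2, Cldn12 and Ocln in each library, by week and group (grey, no DEN; orange, NT; red, nodules). Points are libraries, and the dash with bars is the mean ± SD of 4 rats, with both nodules of a rat pooled. All Cldn12 points of NT liver lie between 30.5 and 39.8 CPM, under the untreated range of 46.0 to 54.6 CPM.

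Cldn7, an epithelial claudin of ducts and many carcinomas, rose in 14- and 20-week NT liver and rose most of all members in nodules. Untreated liver held 1.64, 2.52, 1.97 and 2.04 CPM at 8 weeks, 1.58, 2.19, 2.58 and 1.65 CPM at 14 weeks and 0.927, 2.19, 2.33 and 1.68 CPM at 20 weeks. In NT liver the values were 3.30, 3.23, 2.10 and 3.08 CPM at 8 weeks, 4.08, 7.18, 7.08 and 6.65 CPM at 14 weeks, and 5.04, 4.09, 4.19 and 5.98 CPM at 20 weeks. Only the 8-week groups overlapped, through rat H17, and there the log2 fold change of 0.51 (SE 0.19, adjusted p = 0.0619) did not pass, although it did without that rat (0.63, adjusted p = 0.0146). The rise was 1.66 (SE 0.22, adjusted p = 0.00013) on the log2 scale at 14 weeks and 1.43 (SE 0.26, adjusted p = 0.00328) at 20 weeks. Nodules held 6.73 to 10.2 CPM (median 8.35) at 14 weeks and 6.15 to 17.6 CPM (median 9.83) at 20 weeks, a log2 fold change of 2.05 (SE 0.18, adjusted p = 3.89e-05) and of 2.49 (SE 0.29, adjusted p = 0.000159). The mean was 10.3 ± 2.89 CPM (SD, n = 4 rats) in 20-week nodules against 1.78 ± 0.636 CPM in untreated rats.

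The effect of DEN on Cldn7 in NT liver was larger at 14 than at 8 weeks by 1.15 on the log2 scale (SE 0.30), a difference that passed the edgeR test of the interaction (adjusted p = 0.0277). In that test 8.96% of all genes passed, and Cldn7 was the 1 member of 10. Its adjusted p was 0.0549 to 0.0672 without any 1 of rats H06, H09, H12, H21 or H22. The cholangiocyte markers moved with Cldn7: keratin 19 (Krt19) averaged 1.52 CPM in untreated and 20.4 CPM in NT liver at 14 weeks. Of the 6 cholangiocyte markers tested 3 rose in 8-week NT, where 16.5% of all genes rose. In each of the other 4 comparisons with untreated liver 5 of the 6 rose, against 14.3% to 23.9% of all genes. Over all 40 libraries Cldn7 had a Pearson r of 0.93 with the mean log2 CPM of those 6 markers. Its r was 0.69 with the stellate cell and fibroblast markers and 0.68 with the endothelial markers. Libraries of one rat and of one treatment are not independent, and the part of bile duct cells in the Cldn7 result was not tested.

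Cldn5, the claudin of vascular endothelium, was the least counted member, with 5 to 103 reads in a library. Its levels were 0.821, 0.662, 0.710 and 0.501 CPM in untreated and 1.71, 1.60, 1.23 and 1.11 CPM in NT liver at 8 weeks. At 14 weeks they were 0.287, 0.495, 0.436 and 0.549 CPM untreated and 1.23, 1.07, 1.08 and 0.610 CPM in NT liver, and at neither time did the groups overlap. The log2 fold change was 1.06 (SE 0.24, adjusted p = 0.00585) at 8 weeks, where it was lost without the 2 rats numbered F (0.81, adjusted p = 0.0649), and 1.17 (SE 0.29, adjusted p = 0.00621) at 14 weeks. Cldn5 rose in 14-week nodules too (0.560 to 1.77 CPM, log2 fold change 1.44, SE 0.25, adjusted p = 0.00138). At 20 weeks, after the weeks without DEN, the log2 fold change was 0.78 (SE 0.34, adjusted p = 0.112) in NT liver and 1.11 (SE 0.44, adjusted p = 0.0537) in nodules, where the nodules of rat F03 (1.76 and 2.53 CPM) stood above the other 6 (0.675 to 0.983 CPM). Without that rat the log2 fold change was 0.66 (adjusted p = 0.115). The 20-week nodule value passed in 7 of 17 alternatives, with adjusted p-values of 0.00506 (a fit of all 8 groups) to 0.0494, DESeq2 among them (0.0345). Over the 40 libraries Cldn5 had a Pearson r of 0.77 with the stellate cell and fibroblast markers, of 0.75 with the lymphocyte markers and of 0.68 with the endothelial markers. The summed level of 8 endothelial markers was 111 to 177 CPM in untreated and 225 to 235 CPM in NT liver at 8 weeks, and 102 to 159 and 225 to 271 CPM at 14 weeks, and the part of these cells in the Cldn5 result was not tested.

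Jam3, whose protein JAM-C joins epithelial and endothelial cells and guides leukocyte passage, rose at 8 and 14 weeks, while DEN was being given, and was not called at 20 weeks, when its levels overlapped those of untreated rats. Untreated livers held 10.7, 11.5, 11.7 and 12.4 CPM at 8 weeks and 10.8, 10.4, 10.7 and 11 CPM at 14 weeks. NT livers held 20.2, 25.8, 27.3 and 31.3 CPM at 8 weeks and 20.2, 23.5, 23.4 and 27.0 CPM at 14 weeks, and the 8 nodules of 14 weeks held 16.5 to 24.5 CPM (median 22.1), all above every untreated rat. The log2 fold change was 1.16 (SE 0.13, adjusted p = 0.00012) in 8-week NT, 1.14 (SE 0.09, adjusted p = 6.38e-06) in 14-week NT and 0.95 (SE 0.10, adjusted p = 9.97e-05) in 14-week nodules. At 20 weeks NT livers held 12.7, 12.6, 14.1 and 13.3 CPM and nodules 12.1 to 16.4 CPM (median 12.9), beside 13.7, 15.2, 11.3 and 15.3 CPM in untreated rats, so all NT livers lay within the untreated range and the nodules reached slightly above it. The log2 fold change there was -0.08 (SE 0.11, adjusted p = 0.631) in NT and -0.07 (SE 0.12, adjusted p = 0.644) in nodules.

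The change in the Jam3 effect between 14 and 20 weeks was itself tested. In NT liver the effect was lower at 20 weeks by 1.22 on the log2 scale (log2 difference -1.22, SE 0.14, edgeR adjusted p = 0.000283), where 83 of 11245 genes (0.738%) passed. In nodules the difference was -1.02 (SE 0.15, adjusted p = 0.0105), and Jam3 was 1 of 10 genes (0.0862%) that passed. The untreated level itself was higher at 20 than at 14 weeks, without overlap (4.03% of all genes did not overlap there). That log2 fold change of 0.38 (SE 0.10, edgeR adjusted p = 0.449) did not pass and enters both differences. Age and time since the last injection differ together between the 14- and 20-week groups and cannot be told apart. Over the 40 libraries the genes whose log2 CPM was most like that of Jam3 were Ccng1 (Pearson r = 0.96), Cdkn1a (r = 0.91) and Mybl2 (r = 0.90), a description over libraries that share treatment and rats. The stellate cell and fibroblast markers had an r of 0.72 with Jam3. Their summed level was 182 to 269 CPM in untreated liver, 385 to 512 CPM in 8-week NT, 393 to 512 CPM in 14-week NT and 260 to 280 CPM in 20-week NT, and it was 435 to 567 CPM in 14-week and 276 to 427 CPM in 20-week nodules. At 20 weeks these markers lay above those of the untreated rats of that time (182 to 239 CPM), whereas Jam3 overlapped them. Their part in the Jam3 result was not tested.

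**Figure D3:**
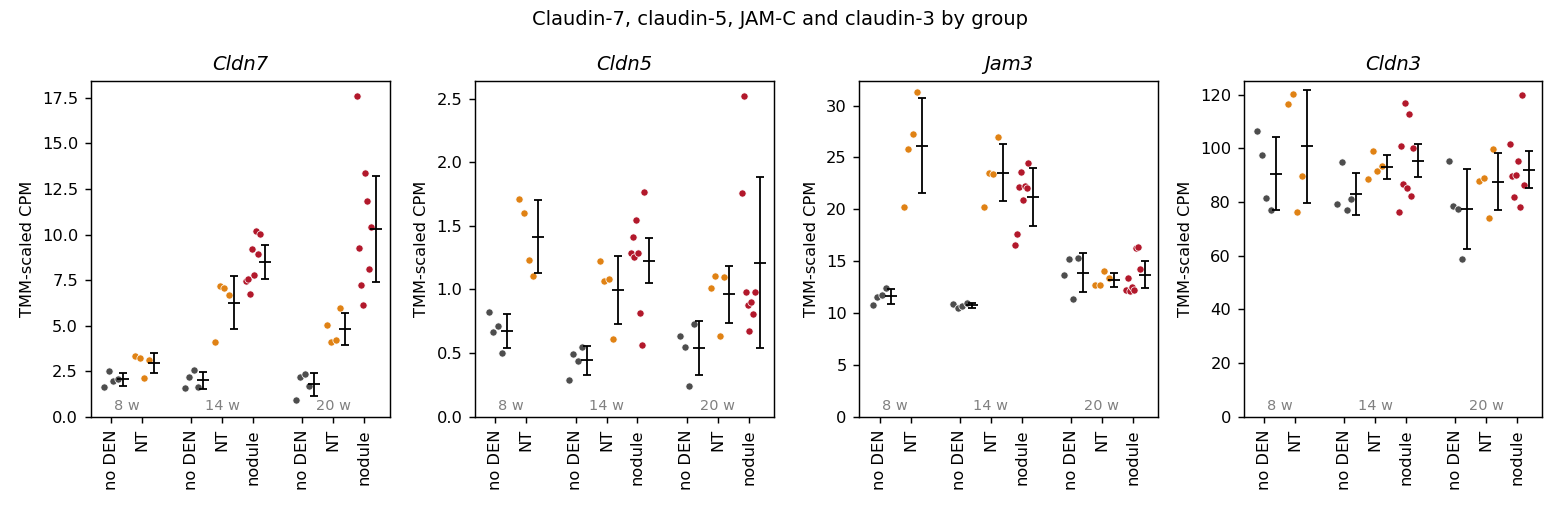
TMM-scaled CPM (y axis, starting at 0) of Cldn7, Cldn5, Jam3 and Cldn3 in each library, by week and group (grey, no DEN; orange, NT; red, nodules). Points are libraries, and the dash with bars is the mean ± SD of 4 rats, with both nodules of a rat pooled. Jam3 stands at 20.2 to 31.3 CPM in NT liver at 8 and 14 weeks and at 12.6 to 14.1 CPM at 20 weeks, while the Cldn3 groups overlap at each time.

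Cldn3, a sealing claudin of hepatocytes and bile ducts, was not called in any comparison. Its levels were 76.9 to 107 CPM in untreated and 76.4 to 120 CPM in NT liver at 8 weeks, 77.2 to 94.8 and 88.5 to 99.0 CPM at 14 weeks, and 58.6 to 95.4 and 73.9 to 99.9 CPM at 20 weeks. The log2 fold change against untreated liver lay between 0.14 and 0.20 in all 5 comparisons, with adjusted p-values from 0.0702 to 0.481. The groups overlapped each time, and the highest correlation of Cldn3 with any gene over the 40 libraries was 0.66, the lowest such maximum among the members.

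Cldn14, which limits cation passage in the kidney and inner ear, was called in 14-week NT liver alone among the comparisons with untreated liver. There NT liver held 16.1, 7.77, 9.64 and 10.8 CPM against 14.8, 16.3, 18.8 and 18.8 CPM untreated (log2 fold change -0.62, SE 0.20, adjusted p = 0.0236). NT liver of rat F06 lay within the untreated range and both of its nodules just above it, at 19.6 and 18.9 CPM, while the nodules of the other 3 rats held 6.73 to 12.5 CPM. Over all 4 rats the 14-week nodules did not pass (log2 fold change -0.57, SE 0.26, adjusted p = 0.0947). They did (-0.90) without F06, whose nodules had the high share of pairs assigned to no feature given above. Without rat H21 the value was -0.43. Cldn14 had a Pearson r of 0.80 with the hepatocyte markers over the 40 libraries, and their part was not tested. The nodules of 20 weeks likewise had their highest value in rat F03 (20.5 CPM, the others 5.24 to 13.5 CPM). Their log2 fold change was -0.44 (SE 0.24, adjusted p = 0.151). It was -0.67 (adjusted p = 0.0225) without rat F03 and -0.25 without rat H28. In 8-week NT liver the 2 rats numbered F were the higher ones as well, at 21.5 and 21.4 CPM against 13.7 and 16.6 CPM in the others. The NT call at 14 weeks was lost without any 1 of rats H11, H12, H21, H22 or H23, with adjusted p-values of 0.0421 (without H21, where the log2 fold change was -0.49) to 0.0645.

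Ocln, the first tight junction membrane protein to be found, fell in 8-week NT liver. It held 24.1, 26.5, 24.1 and 22.8 CPM there against 37.2, 37.8, 35.0 and 29.1 CPM untreated, a log2 fold change of -0.52 (SE 0.09, adjusted p = 0.00189) that stood just past the fold threshold and went under it (-0.49) without rat H05, H06 or H18. In the other comparisons the log2 fold change was -0.22 (adjusted p = 0.0818) in 14-week NT, -0.17 (adjusted p = 0.25) in 20-week NT, -0.41 (adjusted p = 0.0158) in 14-week nodules and -0.37 (adjusted p = 0.0167) in 20-week nodules. All 5 values were below 0, and 1 was called. Ocln had a Pearson r of -0.73 with the lymphocyte markers and of -0.63 with both the endothelial and the stellate cell and fibroblast markers. The summed level of 6 lymphocyte markers was 15.2 to 25 CPM in untreated and 38.9 to 42.4 CPM in NT liver at 8 weeks, and the part of these cells in the Ocln result was not tested.

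Tjp1 was not called in any comparison with untreated liver. Its level at 8 weeks was 43.3, 42.4, 55.8 and 47.5 CPM in NT against 59.8, 57.8, 64.0 and 56.8 CPM untreated, a log2 fold change of -0.34 (SE 0.10, adjusted p = 0.0229) without overlap but under the fold threshold. It was 0.07 (adjusted p = 0.499) in 14-week NT, -0.13 (adjusted p = 0.303) in 20-week NT and -0.28 (adjusted p = 0.119) in 14-week nodules, where both nodules of rat F06 (36.6 and 38.4 CPM) stood below the other 6 (53.8 to 64.8 CPM). These are again the 2 nodule libraries with the high share of pairs assigned to no feature, and without rat F06 the log2 fold change was -0.12 (adjusted p = 0.112). In 20-week nodules it was -0.43 (SE 0.12, adjusted p = 0.0139), and there it was called without rat H25 (-0.54, adjusted p = 0.00278) and with nodule 1 alone (-0.56, adjusted p = 0.00137).

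Untreated livers of different ages were compared next. From 8 to 14 weeks and from 14 to 20 weeks 0 of the 10 members were called by edgeR, as were 0% of all genes, and at an unadjusted p under 0.05 there were 0 members (9.9% of genes) and 2 members (6.42% of genes), the latter Jam3 and Cldn14. DESeq2 called 0 members in both. The groups of rats overlapped for all 10 members from 8 to 14 weeks (4.52% of all genes did not overlap), and the log2 fold change largest in size was that of Cldn5 (-0.59, SE 0.29, adjusted p = 0.523).

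Nodules were next set against the NT liver of the same rats. Without the pairing 0 members were called at either time (0% of all genes in edgeR), although 4 members (11.8% of genes) had an unadjusted p under 0.05 at 14 weeks and 5 members (24% of genes) at 20 weeks. DESeq2 called 0 members at 14 weeks and 1, Cldn7, at 20 weeks, and its calls over all genes were not counted. With the rat as a block, 2 members were called at 20 weeks, where 14.7% of all genes were, and 0 at 14 weeks, where 0% were. Cldn7 rose in 20-week nodules by 1.06 on the log2 scale (SE 0.16, blocked edgeR adjusted p = 0.00169, against 0.0949 without the block), and all 8 nodules were above the NT liver of their rat. At the level of rats its groups did not overlap (10.8% of all genes). Cldn1 fell (log2 fold change -0.84, SE 0.11, blocked adjusted p = 0.000537, against 0.189 without the block), with all 8 nodules below the NT liver of their rat. Cldn2 (-0.41), Cldn14 (-0.46), Tjp1 (-0.30) and Cldn12 (-0.30) had blocked adjusted p-values of 0.00475, 0.0213, 0.0126 and 0.0255 but stayed under the fold threshold. At 14 weeks all 8 nodules were also below the NT liver of their rat for Cldn1, Cldn2 and Tjp1, with blocked log2 fold changes of -0.47, -0.28 and -0.33. Their blocked adjusted p-values of 0.167, 0.18 and 0.167 did not pass.

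**Figure D4:**
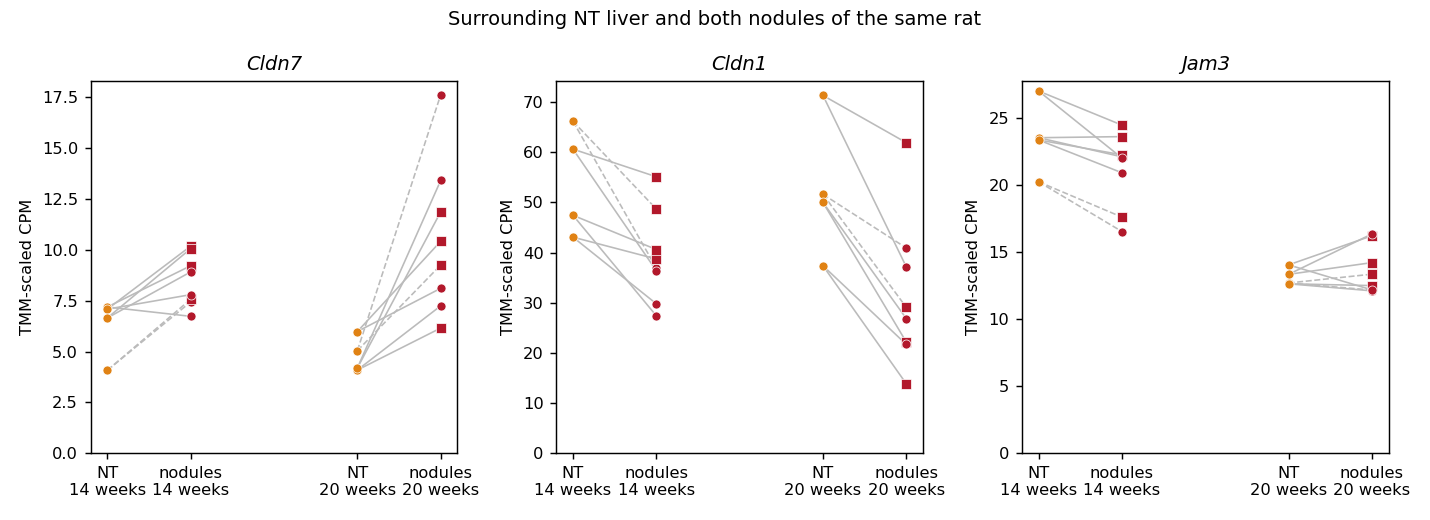
TMM-scaled CPM (y axis, starting at 0) of Cldn7, Cldn1 and Jam3 in NT liver (orange) joined to nodule 1 (red circle) and nodule 2 (red square) of the same rat, at 14 and 20 weeks. Dashed lines are rats numbered F. At 20 weeks Cldn7 rises along all 8 lines and Cldn1 falls along all 8.

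Nodules of one rat did not always hold the same level. Cldn7 was at 17.6 and 9.25 CPM in the nodules of rat F03, a log2 difference of 0.92, and Cldn1 at 37.2 and 61.9 CPM in those of rat H25, a log2 difference of 0.74. The widest difference was that of Cldn5 in rat H23 at 14 weeks (0.560 and 1.77 CPM, 1.56 on the log2 scale). These are wide differences picked from the 80 values of the 10 members in 8 rats. Across all genes the 90th percentile of the difference was 1.15 in rat F03 and 0.78 in rat H25, above the Cldn7 and Cldn1 values, and 0.582 in rat H23, below the Cldn5 value. Each nodule is 1 library, and its technical error was not measured.

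Over the 40 libraries the falling claudins ran together and against Cldn7: Pearson r was 0.91 for Cldn2 and Cldn12, 0.79 for Cldn1 and Cldn2, and -0.87 for Cldn2 and Cldn7. The genes most like Cldn2, Cldn12, Cldn1 and Cldn7 were S1pr1 (r = 0.95), Slc41a2 (r = 0.96), Mug2 (r = 0.95) and Cryab (r = 0.94). These values describe libraries of shared treatment.

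Few other claudins could be tested. Of 15 other claudins with a row, 2 to 3 passed the filter on low counts in each of the 5 comparisons with untreated liver. Cldn4, a partner of Cldn7 in duct epithelia, was called higher in all 5. Its counts were 2 to 9 in untreated libraries and 18 to 124 in DEN-treated ones, with a log2 fold change of 1.42 in 8-week NT, 2.65 in 14-week NT, 2.19 in 20-week NT, 3.36 in 14-week nodules and 3.22 in 20-week nodules. Cldn6, a claudin of embryonic epithelium, was called higher in the 4 comparisons in which it could be tested (2.09 to 3.12), from 2 to 8 counts in the untreated libraries of 14 and 20 weeks. Cldn23 rose in the nodules of both times (0.96 at 14 and 1.37 at 20 weeks) and was not called in NT liver, where it was -0.09 (adjusted p = 0.809) at 8 weeks. Cldn4 and Cldn6 were under the filter in comparisons among untreated rats and passed it here only through the DEN-treated groups in which they were high, so these calls give no independent support for a rise. Low counts in untreated liver also make the folds uncertain in size.

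Of 10 other tight junction membrane proteins tested, 3 were called higher in all 5 comparisons: Jam2 (log2 fold change 0.81 to 1.18) and Esam (0.70 to 1.18), both known from endothelium, and Ildr1 (1.04 to 2.76), a protein of tricellular junctions. Ildr1, like Cldn4, passed the filter only through the DEN-treated groups. Lsr, which recruits tricellulin to such junctions and is a lipoprotein receptor of hepatocytes, fell in nodules (-0.57 and -0.68). Of 20 cytoplasmic proteins tested, 2 rose and 2 fell in 8-week NT, 5 and 1 in 14-week NT, 2 and 1 in 20-week NT, 4 and 4 in 14-week nodules and 3 and 4 in 20-week nodules. Of all genes 16.5% rose and 5.21% fell in 8-week NT, 22.8% and 9.85% in 14-week NT, 14.3% and 3.82% in 20-week NT, 23.9% and 15.2% in 14-week nodules and 23.6% and 15.2% in 20-week nodules, so several of these counts were near or below the background. The ZO family scaffold Tjp3 fell in 14- and 20-week NT (-0.80 and -0.66) and in nodules (-0.64 and -0.74), and the trafficking protein Rab13 rose in all 5 comparisons (0.58 to 1.33). The median log2 fold change of these 20 genes lay between -0.16 and -0.01 across the 5 comparisons, beside -0.01 to 0.02 for all genes tested.

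Genes of other junctions were counted against the same shares, and junction types were not tested against each other. Of 6 adherens junction genes, E-cadherin (Cdh1) rose at 14 weeks in NT (0.69) and in nodules (0.51), and no other was called in the 5 comparisons. Of 5 desmosome genes tested, desmocollin Dsc2 fell in 20-week NT (-0.55) and in nodules (-0.74 and -0.87), and the plakophilin Pkp3 fell in 14-week nodules (-0.71). Of 5 to 6 gap junction genes tested, 3, 4 and 2 rose in NT at 8, 14 and 20 weeks and 4 and 2 in nodules, and at most 1 fell. The hepatocyte gap junction gene Gjb1 fell at 8 and 14 weeks in NT (-0.56 and -0.96) and in nodules (-1.25 and -1.02), whereas Gja5, a connexin of arterial endothelium, rose in all 5 comparisons (0.69 to 1.60). Gja1 (1.01, 0.57 and 0.52) and Gja4 (0.79, 0.53 and 0.66) rose in 8-week NT, 14-week NT and 14-week nodules, and Gjb2 rose in 14-week NT, 20-week NT and 20-week nodules (0.60, 0.75 and 0.83). Gjc1, the other gene counted as higher in 14-week nodules, passed the filter in no other of the 5 comparisons and did so here only through the nodules in which it was high, so its call gives no independent support for a rise.

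Among 14 regulators of claudin genes with a row, the E-box repressor Snai2 fell in 8-week NT (log2 fold change -1.15), 20-week NT (-1.16) and nodules (-1.27 and -1.89), and in 14-week NT it was -0.71 (adjusted p = 0.0642). The related Snai1 rose in 8-week NT (1.01) and in 20-week nodules (0.70), and Zeb2 rose in 14- and 20-week NT (0.80 and 0.78) and 20-week nodules (0.72). Grhl2, an activator of epithelial junction genes, was at 0.48 (adjusted p = 0.122) in 8-week NT and rose in the other 4 comparisons (1.25 to 1.83). Hnf4a, a factor that maintains hepatocyte identity, fell in all 5 comparisons (-0.51 to -1.14). Klf4 (0.66 to 1.5) and the endothelial factor Sox18 (0.54 to 1.32) rose in all 5 comparisons. Vdr had 0 to 3 counts in the untreated libraries of 14 and 20 weeks and 10 to 878 counts in the DEN-treated libraries of those times. These regulators act in many cells of the liver, and their relation to the member genes was not tested.

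Genes of hepatocyte position and of the canaliculus were tested alongside. Of 11 periportal genes 3, 5 and 4 fell in NT at 8, 14 and 20 weeks, and 6 and 9 in nodules, where 5.21%, 9.85%, 3.82%, 15.2% and 15.2% of all genes fell. Of the 11 or 12 pericentral genes tested 2, 3 and 4 fell in NT, and 6 and 8 in nodules, while the ammonium transporter Rhbg rose in all 5 comparisons (2.79 to 4.29). Of 13 canalicular membrane genes tested 4, 5 and 4 rose and 2, 0 and 0 fell in NT, and 5 and 5 rose and 2 and 3 fell in nodules. Of all genes 16.5%, 22.8% and 14.3% rose in NT and 23.9% and 23.6% in nodules. The export pump Abcb1b rose in all 5 (1.60 to 6.21), and the linker Ezr, a protein of duct and other epithelia, rose as well (0.79 to 2.25). The sterol exporter subunit Abcg8 rose in all 5 (1.49 to 2.54) and its partner Abcg5 in 14-week NT, 20-week NT and 20-week nodules (0.63, 1.45 and 1.31), while Abcb1a rose in 8-week NT, 14-week NT and 14-week nodules (0.77, 1.28 and 0.96). The bile salt pump Abcb11 fell in nodules (-0.93 and -1.03), and the conjugate pump Abcc2 and the phospholipid transporter Abcb4 fell in 8-week NT (-0.60 and -0.57).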

How the data were processed

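RNA from liver tissue kept in a stabilization solution was made into stranded, poly(A)-selected libraries (TruSeq) and sequenced as paired-end reads on a NovaSeq instrument. The authors aligned reads with STAR 2.7.1a to the rat genome rn6 and deposited raw counts of read pairs per gene symbol from HTSeq, strand-aware and without multiply mapped reads, so that reads shared by near-identical genes are not in the counts. Rows that name no gene were left out of library sizes. Between 20528515 and 160622633 pairs were counted per library. The groups follow the labels, and rats are the replicates. The p-values measure the spread between rats, and 4 per group limits the precision.

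Counts were analysed here in R 4.3.3 with edgeR 4.0.16 (TMM scaling, filterByExpr, robust quasi-likelihood F test, Benjamini-Hochberg over all genes tested) on the groups compared. Both nodules of a rat were summed for the tests. Genes with an adjusted p of at most 0.05 and a log2 fold change of 0.5 or more in either direction were called, and for differences between times the adjusted p alone decided. The fitted fold change uses the scaling of the groups in its own comparison and can differ slightly from the ratio of the CPM means. For correlations a prior count of 2 was used before taking logs. The code was tested on simulated data. NT liver and nodules pair by the rat numbers in the labels, and their deviations from group means correlated at 0.368 to 0.543 over 11596 genes in all 8 rats, so values with the rat as a block are printed where they change a call. Alternatives were DESeq2 1.42.0, RLE scaling, no filter, a fit of all 8 groups, a stricter threshold, 1 nodule alone, each nodule as its own value, no rats numbered F, and each rat left out.

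The members and gene lists were chosen with earlier results of these data known. All 10 members are described, and the rule for each other list was at most 4 genes a comparison, those with the largest change past the threshold. The text does not name all of these, and it names some genes or values outside the rule after they were seen, among them Hnf4a, Zeb2, Snai1, Abcb11, Abcc2 and Abcb4. Some genes of the lists had no row and were not analysed here. One gene of the marker lists is not reported here. Promoter letters are from RefSeq (GRCr8) and were not placed on rn6. No value of the study's own comparisons was used.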

Additional observations from a re-analysis of the deposited data

Results flagged for a closer look

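Among the 10 members in the 8 groups, 80 sets of libraries, 3 held a library whose gap to its nearest neighbour was wide for the range of its group by Dixon's criterion, which chance alone would give in about 5% of sets. Cldn1 in 8-week NT liver was highest in rat F10, at 67.5 CPM with the next rat at 54.2 CPM, a gap of 0.837 of the range. Cldn12 in 20-week nodules was highest in nodule 2 of rat H25, at 41.7 CPM with the next at 32.3 CPM, a gap of 0.611 of the range. Ocln was highest in the same nodule, at 32.4 CPM with the next at 28.5 CPM, a gap of 0.527 of the range. That nodule also held the highest Cldn1 and Cldn2 of its group, and without rat H25 the log2 fold change in 20-week nodules against untreated liver was -1.66 for Cldn1, -1.07 for Cldn2 and -0.84 for Cldn12.

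The effect of DEN differed between times for 2 members. For Cldn7 in NT liver it was 1.15 higher on the log2 scale at 14 than at 8 weeks. For Jam3 the difference between 20 and 14 weeks was -1.22 in NT liver and -1.02 in nodules.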

How the results depend on the processing

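The alternatives were computed for the 10 members. The tally of single members covers all 10 in the 5 comparisons with untreated liver. Elsewhere it covers only members with an unadjusted edgeR p under 0.05 or with a call lost or gained. Values of the blocked fits with a rat left out are in it for Cldn1 and Cldn7. Sign changes of other values were not counted. Of these 1094 values under an alternative, 1022 kept their direction and their side of the threshold. A call was lost in 37 and gained in 29, and 6 changed sign, none of these a called value. Under a stricter threshold (log2 fold change of at least 1, adjusted p at most 0.01) the members called were 2 in 8-week NT, 3 in 14-week NT, 1 in 20-week NT and 2 in 20-week nodules against untreated liver. Without the rats numbered F, 1 member was called in 20-week NT and 2 in the 14- against 8-week difference in NT. DESeq2 called 1 in 20-week nodules against NT and 2 in the 14- against 8-week difference. In 20-week nodules against NT a fit of all 8 groups called 2, as did the rat as replicate block, which changed no other count. The block left 0 called in 14-week nodules against NT. Leaving out 1 rat at a time, the members called were 4 to 7 in 8-week NT, 6 to 7 in 14-week NT, 1 to 4 in 20-week NT (1 without F03, H16 or H28), 6 to 7 in 14-week nodules, 4 to 6 in 20-week nodules, 0 to 1 in 20-week nodules against NT (1 without H25; 2 to 3 with the block, 3 without F03 or H25), 0 to 3 in the 14- against 8-week difference (0 without H06, H09, H12, H21 or H22, 3 without F06) and 1 to 2 in the 20- against 14-week difference in NT (2 without F06). Among the values tallied, the sign changed for Cldn14 in 8-week NT (-0.131 to 0.0600 over the rats left out) and in 20-week NT (-0.146 to 0.0885). It also changed for Cldn3 in 8-week NT without the rats numbered F (-0.11) and in 14-week nodules against untreated liver with nodule 1 alone (-0.0136). For Jam3 it changed in 20-week nodules against untreated liver with nodule 2 alone (0.00517). The cause was not tested. RLE scaling moved the median of all genes by less than 0.1 on the log2 scale. Depth limits Cldn5 most, at 5 to 103 reads a library.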
